A study of Homo sapiens with 24 samples.

Results

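The 42 genes described here encode the machinery that copies nuclear DNA, from the proteins that mark and license origins to those that join the new strands and package them with histones. They were listed by known function and not by a rule on measured values, though earlier results of these data were known. Each was read from the brightest of its probe sets that carry its symbol alone on the Affymetrix HG-U133 Plus 2.0 array. All 42 were found among the 19775 genes with such a probe set, and all 42 were above the signal filter in both cell lines, ORC1 in 143B only through its level in rho0. The values are MAS5 signals, a linear measure of how strongly RNA bound the probes of a set, and differences are given as log2 fold changes. One probe set cannot be ranked against another by signal, so each gene is compared only with itself.

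The series asked how cells respond to loss of mitochondrial DNA (mtDNA), and holds 24 arrays in 8 groups of 3. HEK293 cells carry DN-POLG, a dominant negative form of the mtDNA polymerase gamma under a doxycycline-controlled promoter, and were taken uninduced at day 0 or after 3, 6 and 9 days of doxycycline. A derivative of these cells, AOX/NDI1, carries the same transgene and also makes AOX, an alternative oxidase, and NDI1, an NADH dehydrogenase made of a single protein, which together let mitochondria oxidise NADH without the mtDNA-encoded chain. It was taken at days 0 and 9. The remaining groups are 143B osteosarcoma cells with mtDNA (rho+) and a derivative that has none (rho0). Every group received uridine and pyruvate in high-glucose medium. A replicate in HEK293 is 1 round of culture, whose flasks at days 6 and 9 were pooled (2 and 4 flasks). For 143B each state is 1 line, so absence of mtDNA and other differences between the lines cannot be told apart.

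Replication starts when the origin recognition complex (ORC) binds DNA and, with CDC6 and CDT1, loads the ring-shaped MCM2-7 helicase. MCM10, CDC45 and the GINS complex then turn the ring into a moving helicase, polymerase alpha with its primase lays down primers, and polymerases delta and epsilon extend them while held by the sliding clamp PCNA. mtDNA is copied by a separate set of enzymes, with polymerase gamma at its centre. Many nuclear replication genes are transcribed shortly before S phase under E2F transcription factors, which the RB family of proteins represses, so their mRNA level is widely read as a mark of how much a culture is cycling. The paper states, from earlier work, that proliferation was affected at day 6 and lost with complete mtDNA loss at day 9. It also states that AOX and NDI1 had no impact on proliferation without mtDNA. Proliferation was not measured on these arrays.

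The E2F binding motif is a promoter feature that the rule for the list did not use. Promoter windows of RefSeq (GRCh38.p14, from 250 bases before to 50 after the annotated start) were at hand for 36 of the 42 genes. They were searched on both strands for the 4 forms TTTCGCGC, TTTGGCGC, TTTCCCGC and TTTGCCGC. At least 1 form was present in 18 of the 36 (50%), against 6.49% of the 10564 tested genes with a window and 3.99% of all 27305. TTTCCCGC was found in 9, TTTGGCGC in 7, TTTCGCGC in 5 and TTTGCCGC in 0. CCAAT, the box bound by NF-Y, was in 22 of the 36 windows (61.1%, against 43.1% of tested genes), and TTTGAA, the core of the cell cycle homology element of genes active in G2 and mitosis, in 0 (against 13.9%). The 30-base windows below, on the strand of the gene with the motif in capitals, are shown for GMNN and POLE2, which passed a test reported further on, and for 4 subunits of the MCM ring. In MCM2 and MCM6 the 8 letters overlap a second match on the other strand.
GMNN, chr6:24775322-24775351, plus strand: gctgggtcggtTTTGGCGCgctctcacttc
POLE2, chr14:49688201-49688230, minus strand: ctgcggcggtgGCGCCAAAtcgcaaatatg
MCM2, chr3:127598402-127598431, plus strand: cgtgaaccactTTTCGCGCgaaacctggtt
MCM3, chr6:52284728-52284757, minus strand: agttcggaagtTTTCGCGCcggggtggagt
MCM6, chr2:135876573-135876602, minus strand: ctttgcatttgGCGCGAAAtccctttccgt
MCM7, chr7:100101388-100101417, minus strand: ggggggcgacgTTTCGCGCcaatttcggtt
The motif lay within 10 bases of the annotated start in POLE2, MCM2, MCM3 and MCM7 and further upstream in GMNN and MCM6. A match of letters is a description of the window and not evidence of binding.

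The arrays were checked before the genes were read. The transgene was seen in 1 of 3 probe sets for POLG, whose mean signal in DN-POLG cells went from 336 to 3947 after 9 days of induction (log2 fold change 3.54, adjusted p = 8.6e-04). The mtDNA transcript ATP6 fell from 18965 to 3340.0 over the same days, as did COX2 (log2 fold change -1.87), while ND4 (-0.18) was not called. In 143B ATP6 was 21194 in rho+ and 53.2 in rho0. Of 5 HEK293 markers, NEFL and INA were higher in every HEK293 array than in any 143B array, and the 5 summed to 5199 to 9065 against 58.7 to 279.6. Of 10 markers of 143B cells, CD44, AXL, SPARC, RUNX2 and SPP1 separated the lines the other way, and the sum of the 10 overlapped between rho+ (35729 to 46460) and rho0 (38373 to 59908). Replicate 1 of DN-POLG day 6 stood apart in RNA quality, with a ratio of 3' to 5' signal of 8.92 for ACTB and 1.97 for GAPDH, against 1.05 to 1.81 and 0.93 to 1.06 in the other 17 HEK293 arrays. In 143B the ACTB ratio was 10.4 to 17.1 in rho+ and 5.53 to 8.12 in rho0, so the groups did not overlap, while the GAPDH ratio did (1.75 to 2.91 and 1.48 to 2.40). Replicate 2 of rho+ stood apart in the replication genes themselves. It was the lowest of the 3 rho+ arrays for 36 of the 42 genes (85.7%), against 29.5% of all tested genes.

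**Figure D1:**
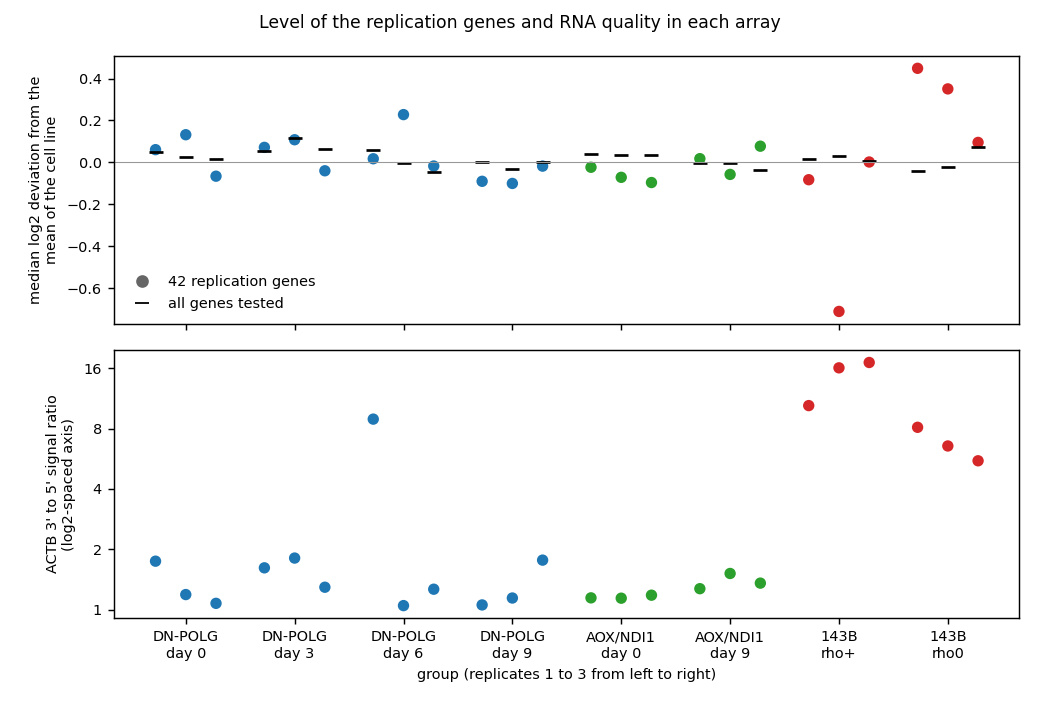
Each point is 1 array, in groups along the x axis. The upper panel plots the median, over the 42 replication genes, of the log2 deviation from each gene's mean in that cell line (black dashes, all tested genes), and the lower panel the 3' to 5' signal ratio of ACTB on a log2-spaced axis. HEK293 arrays lie within -0.10 and 0.23, while 143B runs from -0.71 in rho+ replicate 2 to 0.45 in rho0 replicate 1. The ACTB ratio is 8.92 in DN-POLG day 6 replicate 1 and separates rho+ from rho0.

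The group means of each replication gene were compared across the 6 HEK293 groups. The span between the highest and the lowest group mean had a median of 0.46 on the log2 scale over the 42 genes, was under 0.5 for 23 of them and over 1 for CDT1 and MCM5. The standard deviation between arrays of a group had a median of 0.29. The span was not taken over all tested genes, so it is not shown to be narrow or particular to these genes. PCNA, the clamp, had the narrowest span of 0.15, with all 18 HEK293 arrays between 13571 and 17544.

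**Figure D2:**
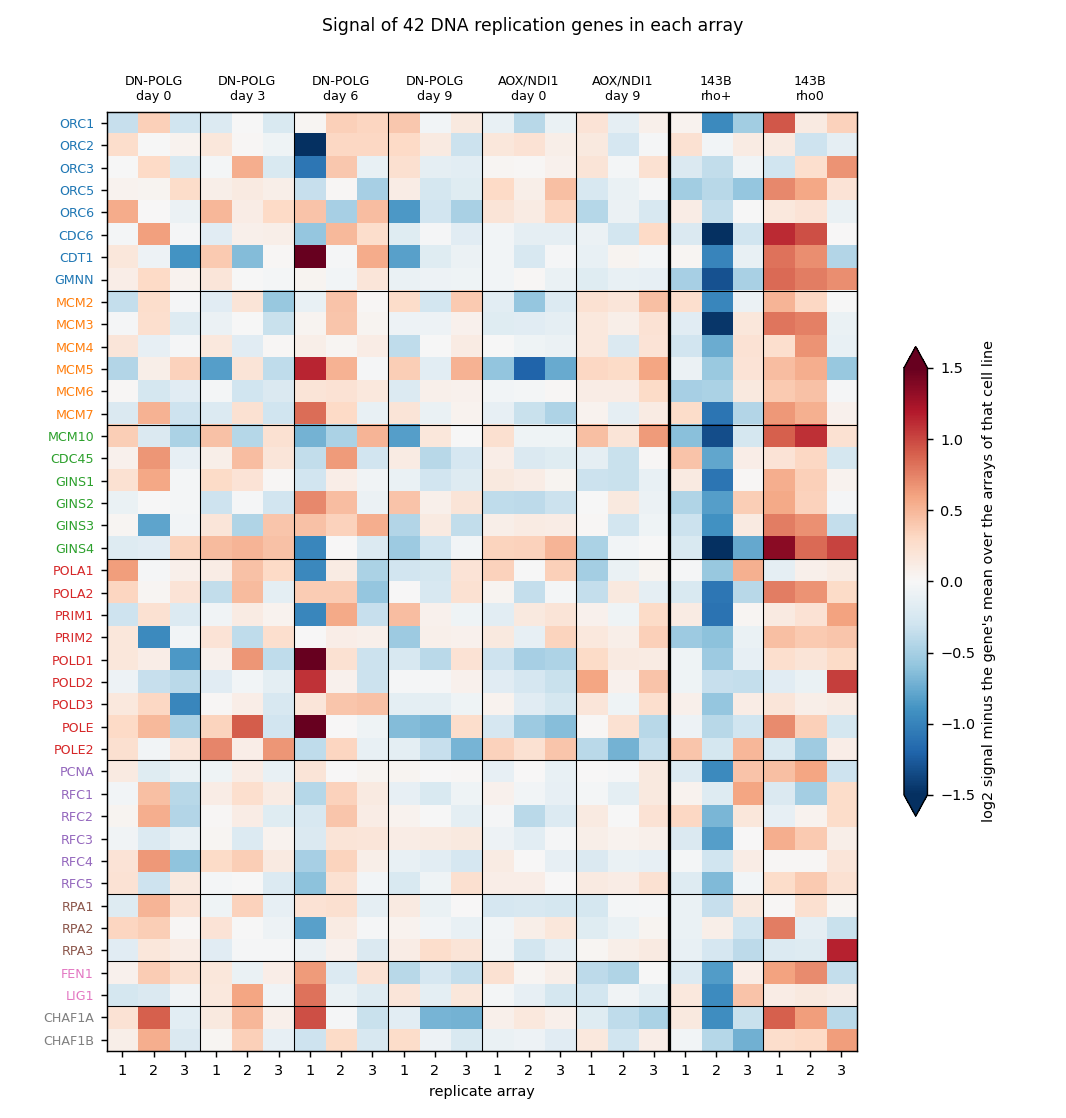
Rows are the 42 genes in order of role (label colours mark the role) and columns the 24 arrays, with replicates 1 to 3 in each group. Colour gives log2 signal minus the gene's mean over the arrays of that cell line, with the scale ending at 1.5 in either direction. HEK293 columns are mostly pale, least so in DN-POLG day 6 replicate 1, rho+ replicate 2 is the bluest column, and rho0 replicates 1 and 2 are the reddest.

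After 3 days of doxycycline no replication gene was called. Adjusted p values here come from limma over all tested probe sets of the line, and a gene is called where its brightest probe set has one under 0.05. Of 12085 genes tested, 0 were called (0%). At an unadjusted p under 0.05 the counts were 0 of the 42 and 286 of 12085, and an unmoderated ANOVA as named in the study's methods also called 0. The 42 log2 fold changes ran from -0.33 for MCM5, a subunit of the helicase ring, to 0.48 for GINS4, a subunit of the GINS complex, so all were within 0.5. POLA2 (-0.20) and CDC6 (-0.19) followed at the low end and LIG1 (0.41) and POLE2 (0.37) at the high end. Their median was -0.016, against 0.056 for all tested genes. The difference for GINS4 had an adjusted p = 1.00, although its 3 arrays at day 3 (1052, 1077 and 1026) were above the 3 at day 0 (663, 675 and 953).

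At day 6 again 0 of the 42 were called, against 146 of 12085 genes (1.21%). By unadjusted p 5 replication genes were under 0.05, namely GINS3, CDT1, POLA1, ORC5 and RPA2 (11.9%, against 15.3% of all tested genes), and the ANOVA called 0 with 8 under 0.05. The median was -0.020, with 20 genes above 0. CDT1, which loads the helicase with CDC6, had the largest log2 fold change at 1.11 (SE 0.42, adjusted p = 0.20). Its signals were 4476, 3769.7 and 2126 at day 0 and 15602, 3931 and 5838 at day 6. The high value belongs to replicate 1, the array with the outlying RNA quality ratio, and without that array the difference was 0.54 (adjusted p = 0.53). POLD1, the catalytic subunit of polymerase delta, had 0.67 with that array and 0.15 without it. ORC2 turned from -0.41 to 0.21. GINS3 had 0.71 (SE 0.25, adjusted p = 0.18) and the same 0.71 without the array, with 1210.2, 686 and 1152 at day 0 and 1606, 1501 and 1723 at day 6. The lowest were POLA1, the catalytic subunit of the primer-making polymerase, at -0.67 (-0.40 without the array) and RPA2, a subunit of the single-strand binding protein RPA, at -0.47 (-0.18).

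At day 9, when ATP6 was at its lowest in these cells, 0 of the 42 replication genes were called, against 930 of 12085 genes (7.70%). At an unadjusted p under 0.05 there were 5, all with lower means at day 9 (CHAF1A, ORC6, FEN1, GINS1 and POLE2), which is 11.9% against 20.3% of all tested genes (13.9% lower), and the ANOVA called 0 with 7 under 0.05. Of the 42, 16 were above 0 and the median was -0.092, against 50.5% and 0.0058 over all tested genes. The 95% interval of the difference lay within 1 log2 unit in either direction for 37 of the 42, against 6677 of the 12085 tested genes. For those genes a change beyond 2-fold was outside the interval. The count was 31 of the 42 in AOX/NDI1 cells at day 9 (5955 of 12085) and 9 of the 42 in 143B (4154 of 11213). RNA from whole cultures was measured, and a smaller share of cells expressing a gene cannot be told apart from less of its RNA in each cell.

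The lowest value at day 9 was that of CHAF1A, the large subunit of the factor that places histones on new DNA. It had 2352, 3766 and 1813 at day 0 and 1817, 1248 and 1234 at day 9, a difference of -0.84 (SE 0.31, adjusted p = 0.12). The day 9 array with the highest value lies just above the lowest at day 0, so these groups overlap. ORC6, a subunit of the origin recognition complex, had 5080.1, 3467 and 3268 and then 1908, 2829.8 and 2481, a difference of -0.70 (SE 0.26, adjusted p = 0.12). FEN1, the nuclease that trims Okazaki fragments, had 6081, 7614 and 6879 and then 4378, 4874 and 4562, a difference of -0.57 (SE 0.21, adjusted p = 0.12). In ORC6 and FEN1 every day 9 array was below every day 0 array. This was so for 5 of the 42 genes (ORC6, FEN1, GINS1, POLE2 and GMNN), while 14.3% of all tested genes had that order. The reverse order was seen in 3 of the 42 (GINS2, POLD2 and RFC3) and in 9.16% of all tested genes. Leaving out replicate 1 of DN-POLG day 6, which enters only through the shared estimate of spread, brought 2 genes past the threshold, CHAF1A (adjusted p = 0.037) and FEN1 (0.042), and raised the genes called to 1363. Over the other settings the adjusted p ran from 0.0052 to 0.58 for CHAF1A and from 0.042 to 0.25 for FEN1. At the high end stood POLD2, a subunit of polymerase delta, at 0.29, GINS2 at 0.28 and ORC1 at 0.26.

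By role, values lay on both sides of 0 in each group of replication genes at day 9 in DN-POLG cells except chromatin assembly, where CHAF1A and CHAF1B were both below. Each gene is read from 1 probe set. Of the 20 members with 2 or more tested probe sets, 9 had another of opposite sign. The 6 subunits of the MCM ring ran from -0.099 to 0.25, with 4 above 0 (2 with quantile normalization). PCNA and the 5 subunits of its loader RFC ran from -0.26 to 0.25. The 9 polymerase and primase subunits ran from -0.52 (POLE2) to 0.29 (POLD2), with 5 above 0. Among the 8 origin and licensing genes ORC1 was above 0 (with arrays set to one median 2 were), and the other 7 ran from -0.70 to -0.036. The 6 helicase activators ran from -0.45 (GINS1) to 0.28 (GINS2), and RPA1, RPA2 and RPA3 from -0.26 to 0.15.

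Between days 6 and 9, 0 replication genes and 32 of 12085 genes (0.265%) were called. At an unadjusted p under 0.05 there were 5 (CDT1, GINS3, ORC6, CHAF1A and FEN1), all with lower means at day 9 (11.9%, against 11.3% of all tested genes), and the ANOVA called 0 with 7 under 0.05. The lowest values were those of CDT1 (-1.21, -0.64 without replicate 1 of day 6), POLE, the catalytic subunit of polymerase epsilon (-0.83, -0.32 without it), and CHAF1A (-0.73, -0.35). The highest were PRIM1, the catalytic subunit of primase (0.41), ORC2 (0.34) and POLA1 (0.32).

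In AOX/NDI1 cells at day 9, MCM5 rose and POLE2 fell. These 2 calls of 42 stand beside 1409 of 12085 genes called (11.7%), of which 188 were higher (1.56%) and 1221 lower (10.1%). With arrays set to one median the split was 297 and 702. MCM5 had signals of 1638, 1070.0 and 1461 at day 0 and 3049, 3017 and 3709.8 at day 9, a log2 fold change of 1.25 (SE 0.32, adjusted p = 0.019), or 2.37-fold. POLE2, the second subunit of polymerase epsilon, had 2327, 2145 and 2439 and then 1389.9, 1123 and 1427, a log2 fold change of -0.82 (SE 0.23, adjusted p = 0.028), or 1.76-fold lower. In both genes the groups were well apart, with the nearest arrays 1638 and 3017 for MCM5 and 2145 and 1427 for POLE2. A second probe set of MCM5 also gave a higher mean at day 9 (670 and 1063, difference 0.67) with an adjusted p = 0.10, while POLE2 has 1 probe set.

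Both calls sit near the threshold. Without the signal filter 0 of the 42 were called (MCM5 adjusted p = 0.058, POLE2 0.079), and with the replicate number as a block 1 was (MCM5 0.048, POLE2 0.066). Over all settings MCM5 had adjusted p values of 3.4e-04 to 0.095 and POLE2 of 2.8e-04 to 0.16. MCM5 was no longer called where probe sets that may match several transcripts (_s_at and _x_at) were left out, which moves it to the second probe set (adjusted p = 0.095). The call of MCM5 was also lost without AOX/NDI1 day 0 replicate 2 or 3 or day 9 replicate 3. POLE2 was no longer called with arrays set to one median, nor when any 1 of the 6 AOX/NDI1 arrays was left out, which gave 0 or 1 calls. It was 3 without DN-POLG day 6 replicate 1.

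**Figure D3:**
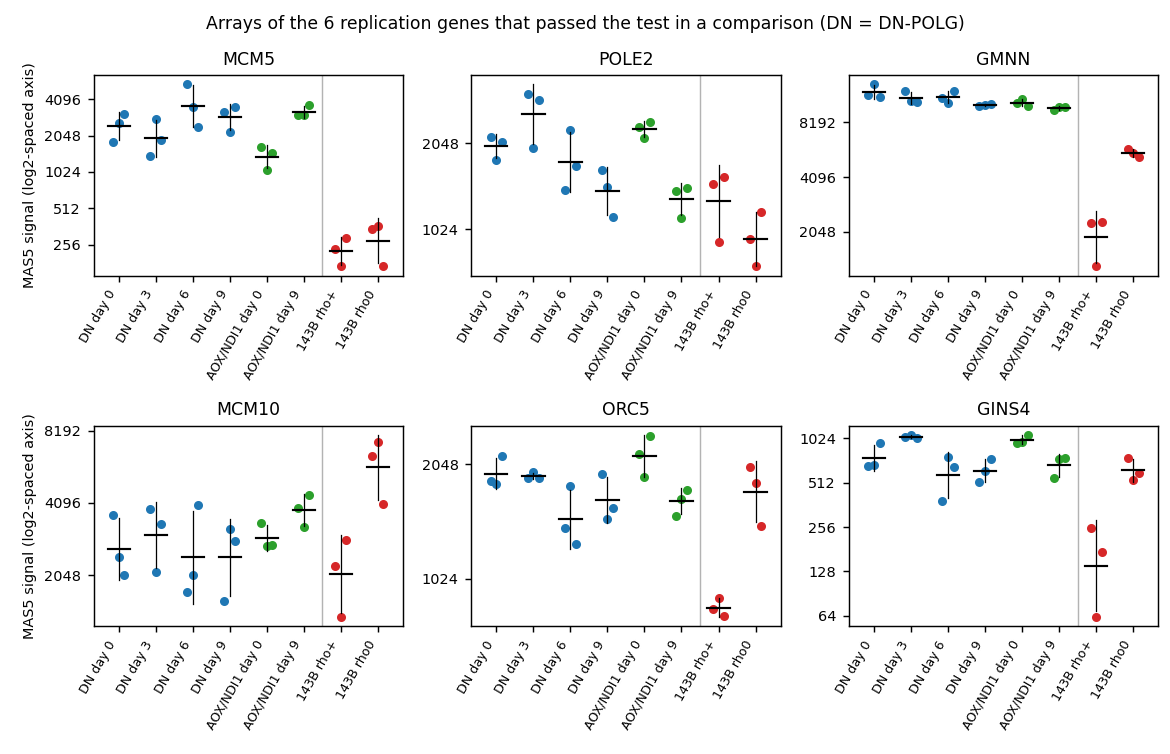
Points are the MAS5 signals of single arrays on a log2-spaced axis for the 6 replication genes called in at least 1 comparison, with the group's mean and SD of log2 signal as a bar and a line. Blue marks DN-POLG, green AOX/NDI1 and red 143B. MCM5 lies between 1070.0 and 1638 in AOX/NDI1 at day 0 and 3017 or above at day 9, while GMNN, MCM10, ORC5 and GINS4 lie higher in all rho0 arrays than in any rho+ array.

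The other members in AOX/NDI1 cells were split in direction. Of the 42, 27 were above 0, with a median of 0.091 against -0.038 for all tested genes, and 6 had an unadjusted p under 0.05 (14.3%, against 26.3% of all tested genes). Every day 9 array was above every day 0 array in 11 of the 42 (24.6% of all tested genes had that order) and below in 9 (29.6%). All 6 subunits of the MCM ring were above 0, from 0.10 to 1.25, although MCM4 and MCM6 were below 0 with quantile normalization, and 4 of them (MCM2, MCM3, MCM5 and MCM6) had arrays that did not overlap. MCM2 had 5429, 4062 and 5259 at day 0 and 7088, 6872 and 8279 at day 9, a difference of 0.60 (SE 0.25, adjusted p = 0.14). POLD2 (0.61, SE 0.27, adjusted p = 0.16) and POLD1 (0.60, SE 0.39, adjusted p = 0.36) were the next highest of the polymerase subunits. The lowest after POLE2 were GINS4 (-0.57, SE 0.25, adjusted p = 0.15) and ORC6 (-0.47, SE 0.26, adjusted p = 0.28). With quantile normalization the median of the 42 was -0.0038 and 20 were above 0, and with arrays set to one median it was 0.23, when all tested genes moved to 0.10, so the direction of the list as a whole depends on the scaling. MCM5 and POLE2 kept their directions under both.

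The uninduced lines were compared to see where AOX/NDI1 cells started. None of the 42 was called, against 1 of 12085 genes (0.00827%). The ANOVA called 0, with 3 under 0.05. By limma 1 of the 42 had an unadjusted p under 0.05 (2.38%, against 5.01% of all tested genes). That gene was MCM5, whose day 0 signals were 1823, 2622 and 3128 in DN-POLG cells and lower in all 3 AOX/NDI1 arrays, a difference of -0.85 (SE 0.32, adjusted p = 0.91). The AOX/NDI1 day 0 arrays enter both this difference and the rise of MCM5 at day 9, where the level of 3259 was close to the 2983 of DN-POLG cells at day 9. POLE (-0.58) and RPA1 (-0.43) were the next lowest in AOX/NDI1 cells, and GINS4 (0.41), PRIM2 (0.39) and GINS3 (0.38) the highest.

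Whether the day 9 response differed between AOX/NDI1 and DN-POLG cells was tested as an interaction. None of the 42 and 0 of 12085 genes were called (0%). At an unadjusted p under 0.05 there were 1 and 365, and the ANOVA called 0 of the 42 with 0 under 0.05. MCM5 had the largest difference, of 1.00 (SE 0.46, adjusted p = 1.00) with a 95% interval of 0.028 to 1.97, followed by POLE (0.87) and POLD1 (0.55). POLE2, called in AOX/NDI1 cells, had -0.29 with an interval of -0.98 to 0.39, and its mean was lower at day 9 in DN-POLG cells too. Its signals there were 2162, 1789 and 2076 at first and 1656, 1441 and 1133 at the end, a difference of -0.52 (SE 0.23, adjusted p = 0.19). GINS4 (-0.29) and LIG1 (-0.26), the ligase of Okazaki fragments, were the other low values. A call in 1 line and not in the other is thus not a shown difference between them.

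**Figure D4:**
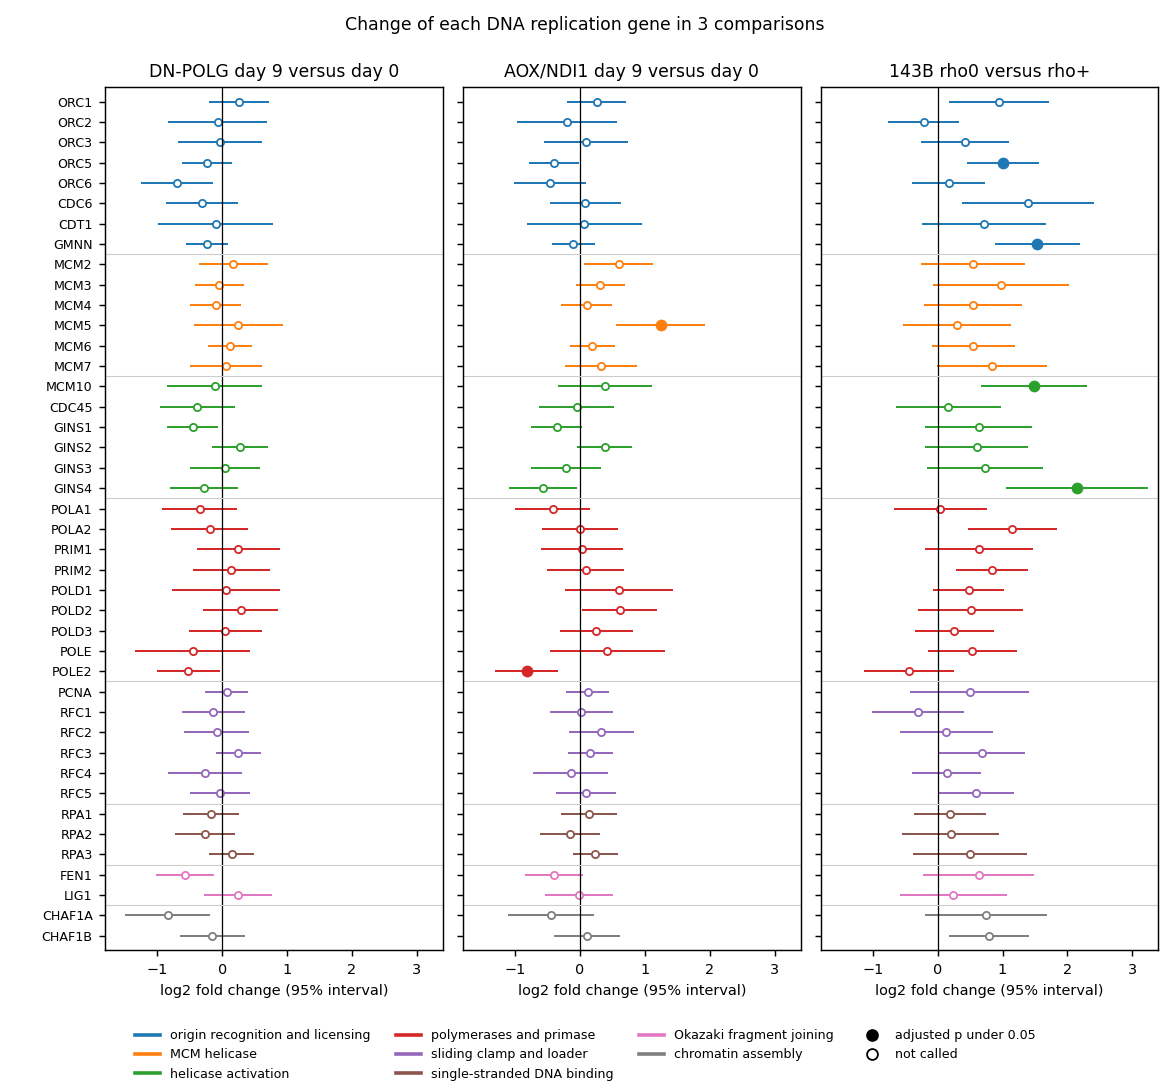
Points are the log2 fold changes of the 42 genes, ordered and coloured by role, with 95% intervals from limma. Filled points passed the adjusted threshold of 0.05. They are MCM5 (1.25) and POLE2 (-0.82) in AOX/NDI1 cells and GMNN, GINS4, MCM10 and ORC5 in 143B, where 39 of the 42 points lie above 0.

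In 143B cells the replication genes were higher in rho0 than in rho+ for nearly the whole list, and 4 of them rose. The log2 fold change was above 0 for 39 of the 42 (92.9%), against 49.2% of the 11213 genes tested, and the median was 0.55 against -0.011. The genes called were GMNN, GINS4, MCM10 and ORC5, all higher, beside 912 of 11213 genes called in either direction (8.13%) and 298 called higher (2.66%). The split of all calls was 298 higher and 614 lower, with quantile normalization 400 and 525, and with arrays set to one median 976 and 383. At an unadjusted p under 0.05 there were 11 (26.2%, against 28% of all tested genes), all with higher means in rho0 (against 12.9% of all tested genes). Every rho0 array was above every rho+ array in 13 of the 42, an order that 16.9% of all tested genes had, and the reverse order occurred in 0. ORC1, whose mean in rho+ was under the filter signal of 83.3, entered only through rho0. Without it 38 of 41 were above 0 with a median of 0.54, 10 had an unadjusted p under 0.05 and 12 were apart.

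GMNN, which encodes geminin, the inhibitor that holds CDT1 until mitosis, had signals of 2297, 1315 and 2316 in rho+ and 5851, 5536 and 5261 in rho0. Its lowest rho0 array was above 2 times its highest rho+ array, and the log2 fold change was 1.54 (SE 0.29, adjusted p = 0.021), or 2.90-fold. Its promoter window holds the E2F motif shown above. GINS4 had 252, 63.1 and 173 in rho+ and 755, 531 and 597 in rho0, the largest log2 fold change of the list at 2.15 (SE 0.48, adjusted p = 0.035). Of its 3 other probe sets, one gave 0.040 (adjusted p = 0.97) and one was below the filter. The last had means of 80.7 in rho+ and 243 in rho0 (1.61, adjusted p = 0.014), but its rho+ mean is under the filter, so it was tested only because rho0 was high. MCM10, which helps to activate the loaded helicase, had 2235, 1372 and 2877 and 6426, 7357 and 4061, a log2 fold change of 1.48 (SE 0.35, adjusted p = 0.043). Its 2 other probe sets gave 2.28 and 1.68, with adjusted p values of 0.057 and 0.064. ORC5, a subunit of the origin recognition complex, had 852, 914 and 820.1 and 2019, 1832 and 1414, a log2 fold change of 1.01 (SE 0.24, adjusted p = 0.043). Another of its probe sets gave 0.39 (adjusted p = 0.33), the mean over its probe sets 0.70 (adjusted p = 0.077), and the remaining one was below the filter. In all 4 genes the rho0 arrays were above the rho+ arrays, and replicate 2 of rho+ had the lowest signal in GMNN, GINS4 and MCM10 but not in ORC5.

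By role, the origin and licensing genes had a median of 0.83, with 7 of 8 above 0, and the helicase activators one of 0.68, with 6 of 6. ORC4 is not among these 8 and is given with the further factors below. The medians were 0.55 for the MCM ring, 0.51 for polymerases and primase, 0.32 for the clamp and its loader and 0.20 for RPA. CDC6, the loader of the ring, had 972, 381 and 918 and 2465, 2219.9 and 1140.2, a difference of 1.40 (SE 0.44, adjusted p = 0.091). CDC6 was apart between the groups without passing the threshold. ORC1, the largest subunit of its complex, had 88.7, 44.4 and 59.9 and 164, 94.5 and 109, given as a description since it passed the filter through rho0 alone. The 6 MCM ring subunits ran from 0.29 (MCM5) to 0.97 (MCM3), and by their brightest probe sets all of them overlapped between the groups. Another tested probe set of MCM4 was called.

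Among the enzymes that synthesise DNA, POLA2, a subunit of polymerase alpha, came nearest to a call, with 175, 97.5 and 155 in rho+, 352, 328 and 252 in rho0 and a difference of 1.15 (SE 0.30, adjusted p = 0.053). PRIM2, the large subunit of primase, had 1298, 1243 and 1767 and 2585, 2492 and 2541, a difference of 0.84 (SE 0.24, adjusted p = 0.071). Arrays of both genes were apart, as were those of PRIM1 and POLD1. POLD1 was near the filter signal of 83.3 in 143B, with arrays from 72.2 to 128.2. POLE2 ran the other way, with 1471, 920.4 and 1559 and 943, 759.6 and 1181, a difference of -0.44 (SE 0.30, adjusted p = 0.38). The remaining genes below 0 were RFC1, the large subunit of the clamp loader (-0.30, SE 0.31, adjusted p = 0.57), and ORC2 (-0.21, SE 0.24, adjusted p = 0.61). With arrays set to one median RFC1 and ORC2 were above 0 (0.0045 and 0.095) and POLE2 was still below. PCNA overlapped between the groups, with 3143, 1866 and 4865 in rho+ and 4957, 5484 and 2929 in rho0. RFC3 (0.69) and RFC5 (0.60) were the clamp loader subunits whose arrays were apart. RPA1, RPA2 and RPA3 had 0.19, 0.20 and 0.50, FEN1 and LIG1 0.63 and 0.24, and CHAF1A and CHAF1B 0.75 and 0.79.

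Over 12 other ways of processing the arrays the median of the replication genes ran from 0.53 to 0.85, the highest with arrays set to one median, which moved all tested genes to 0.29 and left the replication genes 0.56 above them. Leaving out 1 array at a time gave medians of 0.36 to 0.74 and 35 to 39 genes above 0. The lowest median, 0.36, was that without rho+ replicate 2. The number of calls was 0 without rho+ replicate 2 or 3 or rho0 replicate 1 or 2. It was 1 without rho+ replicate 1 (GINS4), 11 without rho0 replicate 3, and 0 without the signal filter or by the ANOVA. Over all tested genes the calls rose from 912 to 2952 without rho0 replicate 3, and fell to between 127 and 268 without any other array. The rise to 11 is therefore not read as particular to the replication genes. Without rho+ replicate 2 the differences were 1.27 for GMNN, 1.57 for GINS4, 1.19 for MCM10 and 1.05 for ORC5, with adjusted p values of 0.078, 0.073, 0.15 and 0.14. Over all settings the adjusted p values ran from 0.0016 to 0.096 for GMNN, 0.0039 to 0.16 for GINS4, 0.0018 to 0.16 for MCM10 and 0.0025 to 0.15 for ORC5. The ACTB 3' to 5' ratio given above also separated rho+ from rho0, and its part in the result was not tested.

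**Figure D5:**
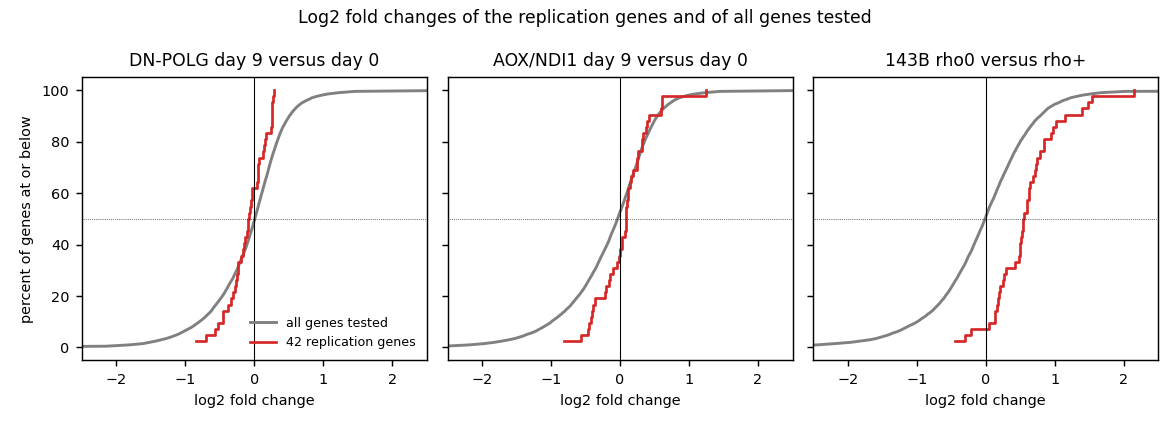
Curves give the percent of genes with a log2 fold change at or below the value on the x axis, in grey for all tested genes and in red for the 42 replication genes. The dotted line at 50 marks the medians. The red curve crosses it at -0.092 in DN-POLG, 0.091 in AOX/NDI1 and 0.55 in 143B, where the grey curve crosses at 0.0058, -0.038 and -0.011.

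The E2F motif and the fold changes were set side by side. The 18 genes with a motif had a median of 0.62 in 143B, the 18 with a window but no motif 0.55, and the 6 with no window at hand 0.40. Of the genes called, GMNN and POLE2 had the motif, MCM10 and ORC5 did not, and MCM5 and GINS4 had no window. At day 9 the medians with and without the motif were 0.089 and 0.061 in AOX/NDI1 cells and -0.040 and -0.13 in DN-POLG cells.

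The cell lines differed in the level of most replication genes before mtDNA was lost. Signal was lower in 143B rho+ than in uninduced DN-POLG cells for 40 of the 42, with a median log2 difference of -1.94, against 57.4% lower and a median of -0.33 over 13040 genes tested in either line. All 6 arrays of 143B were below all 18 of HEK293 in 28 of the 42 (66.7%), an order that 26.1% of the 13040 had. RFC2, a clamp loader subunit, had the widest gap, with 4984, 7073 and 3568 in DN-POLG cells at day 0 and 188, 94.6 and 171 in rho+. PRIM2 was the reverse, with 982, 449.8 and 846 and 1298, 1243 and 1767, and FEN1 was level, with 6081, 7614 and 6879 and 7712, 4975 and 9533. The rho+ signals of RFC2 lay near the filter signal of 83.3 in 143B, which limits how the size of its gap can be read. The 3' to 5' ratios of the lines differ as well, and these levels are given without a test.

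Among 28 further replication factors, listed like the others by known function, 2 fell at day 9 in DN-POLG cells (7.14%, near the 7.70% of all tested genes) and 4 were called in AOX/NDI1 cells (14.3%, against 11.7%). ASF1B, a histone chaperone, had 1989.5, 3300.2 and 2008 at day 0 and 1143, 913 and 1011 at day 9, a log2 fold change of -1.21 (SE 0.24, adjusted p = 0.0055). CDC7, the kinase that fires licensed origins, had 7569, 5826 and 4152 and then 3459.9, 3082 and 3056, a log2 fold change of -0.83 (SE 0.24, adjusted p = 0.045). In AOX/NDI1 cells CDC7 fell as well, from 6519, 6222 and 7196 to 3702, 3601 and 3454 (-0.89, SE 0.24, adjusted p = 0.025). So did its activating partner DBF4 (-0.97, SE 0.24, adjusted p = 0.016) and RNASEH2B (-0.71, SE 0.22, adjusted p = 0.043), a subunit of the enzyme that removes ribonucleotides from DNA, while POLD4, the smallest subunit of polymerase delta, rose (1.15, SE 0.28, adjusted p = 0.014). CDC7 lost its call in 18 of the other settings in DN-POLG and in 9 in AOX/NDI1 cells, RNASEH2B in 16, DBF4 in 6 and POLD4 in 2, and the adjusted p of ASF1B was over the threshold in 1, with only the compared arrays in the fit. In 143B 1 of the 27 factors above the filter was called (3.7%, against 8.13%). RNASEH2C, another subunit of that enzyme, rose from 1468, 1416 and 1406 in rho+ to 3432, 2987 and 4311 in rho0 (1.31, SE 0.24, adjusted p = 0.02). It lost its call in 9 other settings, with 0.64 as the lowest value. The median of these factors in 143B was 0.43, and 21 of 27 were above 0.

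Regulators of the G1 to S transition, a list of 28 that includes the E2F factors and the cyclin-dependent kinase inhibitors, held 4 calls at day 9 in DN-POLG cells and 5 in AOX/NDI1 cells, all lower. These are 14.3% and 17.9% of the list, beside 6.40% and 10.1% of all tested genes called lower. Of the 28, 13 were above 0 in DN-POLG and 11 in AOX/NDI1 cells. The highest were E2F2 in DN-POLG (0.52) and E2F1 in AOX/NDI1 cells (0.97), neither of them called. E2F3, an activator of replication genes, had 2463, 2495 and 3075 at day 0 and 863, 1388 and 931 at day 9 in DN-POLG cells, a log2 fold change of -1.36 (SE 0.23, adjusted p = 0.0018). In AOX/NDI1 cells it had 2549, 2763 and 3251 and then 956, 833 and 1032, a log2 fold change of -1.60 (SE 0.23, adjusted p = 4.4e-04). No array of day 9 reached an array of day 0 in either line. E2F8, a repressor of the family, fell by 1.51 (SE 0.38, adjusted p = 0.021) in DN-POLG and by 1.83 (SE 0.38, adjusted p = 0.005) in AOX/NDI1 cells. RBL1, the RB relative p107, fell by 1.22 (SE 0.35, adjusted p = 0.04) and by 1.28 (SE 0.35, adjusted p = 0.024). CCNE2, which encodes cyclin E2, fell in DN-POLG cells (-0.82, SE 0.23, adjusted p = 0.037), and E2F5, a repressor, in AOX/NDI1 cells (-1.35, SE 0.29, adjusted p = 0.0064). The last of the calls in AOX/NDI1 cells was CDKN1B, which encodes the kinase inhibitor p27 and lies outside the rule for naming genes (-0.93, SE 0.26, adjusted p = 0.027). E2F3, E2F8 and E2F5 in AOX/NDI1 cells kept their calls in every other setting tried, whereas RBL1 and CCNE2 in DN-POLG cells lost theirs in 15 and 13, E2F8 in 6 and E2F3 in 1. RBL1 in AOX/NDI1 cells lost its call in 8, with -0.37 as the smallest change. The interaction called none of these genes, so the lines were not shown to differ.

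In 143B the G1 to S list held 1 call (3.57%, against 8.13% of all tested genes). CDKN1A, which encodes the inhibitor p21, had 4418, 5810.0 and 4530.3 in rho+ and 1155, 916 and 2961 in rho0, a log2 fold change of -1.74 (SE 0.43, adjusted p = 0.047). The call was lost in 9 other settings, among them 5 of the 6 that left out 1 array. Of the 28 regulators 22 were above 0, with a median of 0.24. E2F3 had 2739.9, 2848 and 3972 and 4688, 4503 and 3246, which overlap. Replicate 2 of rho+ was also the lowest of the 6 arrays for the median of both further lists (-0.54 for the replication factors and -0.46 for the regulators, as log2 deviation from the line's mean). Its part in their shifts was not tested.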

How the data were processed

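RNA was measured on 24 Affymetrix HG-U133 Plus 2.0 arrays. The deposited values were MAS5 signals, an intensity scale that the authors produced with Affymetrix Expression Console. A trimmed mean leaving out 2% at each end was 500.1 on every array, so the signals hold no depth, and the number of arrays limits the precision. Signals were taken to log2 with nothing added. Probe sets with 1 gene symbol and a mean log2 signal at or above the median of the cell line were tested (23132 for HEK293, 22786 for 143B), and a gene was read from its brightest probe set over all 24 arrays.

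Comparisons were made with limma 3.58.1 in R 4.3.3, with 6 group means for the 18 HEK293 arrays and a separate model for the 6 of 143B. The p values were adjusted by Benjamini-Hochberg over all tested probe sets with a threshold of 0.05. Values given as an adjusted p come from limma unless the ANOVA of the study's methods, rerun here, is named. Counts of members under 0.05 by the ANOVA are given without the share of all genes. They are therefore not read as a result about the replication genes. On simulated data with seeded changes the mean estimates of the models were close to the seeded values. The simulated noise was independent and held no outlying array, so it does not show how many real changes would be called. Replicates in HEK293 are separate rounds of culture, and the study's methods call its 3 replicates independent. How those of 143B were grown apart is not given in the sources used here.

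The members, the further lists and the promoter motifs were chosen with earlier results of these data known. In each comparison the text names every called member, the 3 highest and 3 lowest fold changes, and up to 4 called genes of each further list. From those lists ORC4, E2F1, E2F2, CDKN1B and E2F3 in 143B were named outside this rule. The fixed markers of the cell lines are named as a check. Other members shown with values per array were chosen after their values were seen. Alternatives covered the scaling, an offset of 16, the signal filter, the choice of probe sets, array weights, trended moderation, the ANOVA, the replicate number as a block and leaving out each array. Per the study's legend, 1 round of HEK293 culture from 1 starter gave 1 replicate of each day. Neither the legend nor the sample titles say that equal numbers mark the same round. Deviations of same-numbered arrays from their group means correlated by 0.32 to 0.51 between days 0 and 3 and by 0.17 to 0.21 between days 0 and 6. Between days 0 and 9 the correlations were -0.32 to 0.040 in DN-POLG and -0.038 to 0.066 in AOX/NDI1 cells. In 143B they were -0.18 to 0.074. Promoter windows came from RefSeq (GRCh38.p14).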

Additional observations from a re-analysis of the deposited data

How the results depend on the processing

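No gene changed direction with a call under any alternative, but the number of replication genes called moved with the processing in 143B and AOX/NDI1 cells. In 143B, against 4, it was 7 with quantile normalization, 9 with arrays set to one median, 0 without the signal filter, 2 with the mean of a gene's probe sets (GMNN and MCM10), 21 with array weights, 0 with the ANOVA and 1 with the replicate block (GINS4). In AOX/NDI1 at day 9, against 2, it was 1 with one median, 0 without the filter, 5 when any probe set counted, 9 with the compared arrays alone, 16 with array weights and 1 with the block (MCM5). Where none was called, array weights gave 1 at day 3 and 1 between the lines at day 0 (GINS4 in both) and 5 at day 9, and any probe set gave 1 at day 6 (RFC3) and 1 at day 9 (ORC2). Leaving out 1 array gave 0 to 11 calls in 143B, 0 to 3 in AOX/NDI1 and 0 to 2 at day 9 in DN-POLG, and 0 in the other comparisons. The causes were not tested. Of the 20 members with 2 or more tested probe sets, 7 to 9 had another of opposite sign in each HEK293 comparison and 2 in 143B. The call differed in another probe set of ORC2, MCM5, POLA2 and CHAF1A in AOX/NDI1 at day 9. In 143B it differed for ORC5, MCM4, MCM10 and GINS4. The block and the pairing it assumes changed no other count of replication genes. It could not be fitted between the uninduced lines, which share no culture round. Over all genes the block gave 15 calls at day 6 against 146, 693 at day 9 against 930 and 357 in 143B against 912. Array weights gave 2823 at day 9, 5158 in AOX/NDI1 and 4192 in 143B. The compared arrays alone gave 120 at day 9 and 4029 in AOX/NDI1. Without the filter 538, 902 and 232 genes were called in these comparisons. The ANOVA gave 53 in 143B. Leaving out 1 array gave 16 to 458 genes at day 6 (lowest without DN-POLG day 0 replicate 3, highest without its replicate 2), 469 to 1363 at day 9 (without DN-POLG day 9 replicate 3, day 6 replicate 1), 2 to 62 between days 6 and 9 (without DN-POLG day 9 replicate 3, day 6 replicate 2), 716 to 2089 in AOX/NDI1 (without its day 0 replicate 3, DN-POLG day 6 replicate 1) and 127 to 2952 in 143B (without rho+ replicate 2, rho0 replicate 3), so the shares of all genes called move as well. At day 6 the split of 25 higher and 121 lower became 28 and 20 with one median. Probe sets near background limit what these arrays can show, and 3 arrays a group limit the rest.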
